A study of Mus musculus with 24 samples.

Results

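The comparison set quadriceps of dystrophin-deficient mdx mice against quadriceps of BL10 control mice at 3 weeks of age. Its members were chosen by label alone: the 3 arrays titled as mdx and the 3 titled as control at that age, 6 of the 24 arrays in the series. The mdx strain carries a nonsense mutation in Dmd, the X-linked gene of dystrophin, in every cell of the animal, and BL10 is the strain it arose on. The animals were untreated, the arrays are labelled as biological replicates, and the labels give neither sex nor litter. The other 18 arrays cover both strains at 5 days, 2 weeks and 6 weeks, and here they serve to estimate the spread between arrays and to show whether a strain difference was already present before 3 weeks.

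Dystrophin ties the actin cytoskeleton of the muscle fibre to a complex of membrane proteins and, through it, to the basal lamina. Without it the fibre membrane tears during contraction, calcium enters, and fibres die. In mdx mice the first large wave of fibre necrosis comes around weaning, when monocytes and macrophages enter the muscle, clear dead fibres and, with satellite cells, accompany the building of new fibres that pass through an embryonic programme of myosin, troponin and acetylcholine receptor genes. The comparison therefore asks what the transcripts of the muscle look like at the onset of degeneration and repair.

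Levels are given as log2(intensity + 16) after quantile normalization, in the order of replicates 1, 2 and 3. A level of 4 is the floor, where the normalized value was at or below 0, and changes of dim genes are understated by the added 16. Where a gene is said to be listed at or below 0, the deposited value is meant. Differences are mdx minus BL10 with the standard error of a limma fit to all 24 arrays (n = 3 arrays a group), and a gene is called where the Benjamini-Hochberg adjusted p of that fit was under 0.05 over the 15000 genes tested. Each gene is read from its brightest probe set, and levels are compared only between arrays, never between genes. In whole muscle, more cells of a type and more RNA per cell cannot be told apart.

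The arrays had median deposited intensities of 48.39 to 52.54, and 3.29% to 4.35% of their values lay below 0. All 6 had low Xist (4.74 to 5.20) beside Eif2s3y at 7.73 to 9.62, so all read as male. The 3' minus 5' Gapdh control was -0.22 to -0.15 in BL10 and 0.71, 0.42 and -0.20 in mdx, so mdx replicates 1 and 2 stood apart in this sign of RNA integrity, while the same measure for actin ran from -0.23 to -0.06 over all 6. Over the genes tested, 3 of the 6 arrays correlated most closely with an array of the other strain label. BL10 replicate 2 was nearest to mdx replicate 2 of 2 weeks (r = 0.9783), and mdx replicate 2 to a BL10 array of 6 weeks (r = 0.9534). BL10 replicate 3 was nearest to mdx replicate 3 of 2 weeks (r = 0.9748). The label of that 2-week array is itself in doubt, since its Dmd level reads as BL10 and its description names 3 weeks. The nearest array of mdx replicate 1 was an mdx array of 2 weeks (r = 0.9882), and BL10 replicate 1 and mdx replicate 3 were nearest to an array of their own group. The part of RNA integrity and of these likenesses in the results was not tested.

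Dmd itself was not called at this age. Its brightest probe set, 1448665_at, read 8.88, 8.02 and 10.13 in BL10 and 7.94, 7.64 and 8.25 in mdx. Probe set 1417307_at read 8.03, 7.59 and 9.66 in BL10 and 7.43, 7.37 and 7.10 in mdx. BL10 replicate 3 stood highest in both, and the library labelled BL10 replicate 2 lay inside the mdx range in the former and just above the highest mdx array in the latter, so in the brightest probe set the targeted gene goes against the label of that library. The difference of the brightest probe set was -1.07 ± 0.47 and was not called (limma, adjusted p = 0.161). A dimmer Dmd probe set, 1443315_at, read 6.37, 8.36 and 8.48 in BL10 against 7.42, 7.67 and 7.88 in mdx, with BL10 replicate 1 the lowest of all 6. A point mutation removes no probe, so these probe sets report how much transcript remained.

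**Figure D1:**
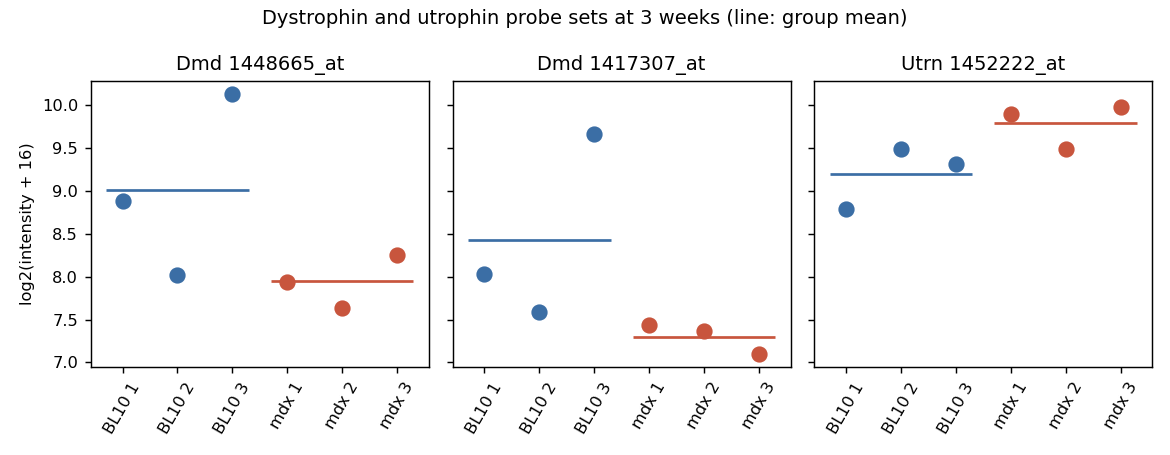
Dots show log2(intensity + 16) of 2 Dmd probe sets and the brightest Utrn probe set in each of the 6 arrays at 3 weeks, blue for BL10 and red for mdx, with a line at each group mean. BL10 replicate 2 (8.02 and 7.59) lies inside the mdx range in the brighter Dmd probe set and just above it in the other, and the Utrn panel shows overlap between the groups.

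Utrn, which encodes utrophin, the dystrophin relative that can take its place at the membrane, read 8.78, 9.48 and 9.31 in BL10 and 9.90, 9.48 and 9.98 in mdx. These levels are from its brightest probe set, 1452222_at. The groups overlapped through mdx replicate 2, and the difference of 0.59 ± 0.22 was not called (limma, adjusted p = 0.0967). The dimmer Utrn probe sets did not share this rise. In 1426892_at the difference was -0.64, with every mdx array below every BL10 array, and in 1427569_a_at it was 0.13 with overlap. The direction for Utrn thus rests on the choice of probe set. Without BL10 replicate 2, a library picked by its Dmd level, the brightest Utrn probe set was called at 0.74 ± 0.24 (limma, adjusted p = 0.0472). Dmd then read -1.56 ± 0.48, a value that follows from the choice of library. None (0) of the 18 tested genes of the dystrophin complex, sarcoglycans, dystroglycan, syntrophins and dystrobrevins among them, was called, and their median difference was -0.14. At an unadjusted p under 0.05 limma gave 1 of them higher (Utrn) and 2 lower (Dmd and Sgca). Over all 15000 genes 3834 passed that threshold in either direction. Sgca, alpha-sarcoglycan, had the next lowest difference after Dmd, -0.76 ± 0.27 (limma, adjusted p = 0.0807).

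Over all genes, 1216 of 15000 were called (8.11%). Of these 730 were higher in mdx (4.87% of genes) and 486 lower (3.24%), and 442 differed at least 2-fold, 335 of them higher and 107 lower. In 675 of the 730 and 466 of the 486 every mdx array lay beyond every BL10 array, against 11.1% of all genes with mdx entirely above and 12.2% entirely below. Of the higher genes 465 had several probe sets, which all moved the same way in 273. For the lower genes these counts were 250 and 130. The fit pools its spread over all ages: fitted to these 6 arrays without the other ages, limma called 0 genes, although 2472 had an unadjusted p under 0.05. The split also rests on the scaling, since 82% of called genes were higher with the values as deposited and 83.1% after median centring, against 60% after quantile normalization. The median difference of all genes moved from -0.018 to 0.087 and 0.081 with these scalings.

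The libraries did not contribute evenly. Among the 730 higher genes, mdx replicate 1 was the lowest of the 3 mdx arrays in 457, and BL10 replicate 2 the highest of the 3 BL10 arrays in 428. Among the 486 lower genes BL10 replicate 2 was the lowest BL10 array in 331. Leaving out BL10 replicate 2 raised the count to 2106, and leaving out BL10 replicate 1, BL10 replicate 3, mdx replicate 2 or mdx replicate 3 lowered it to 522, 485, 689 and 462.

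**Figure D2:**
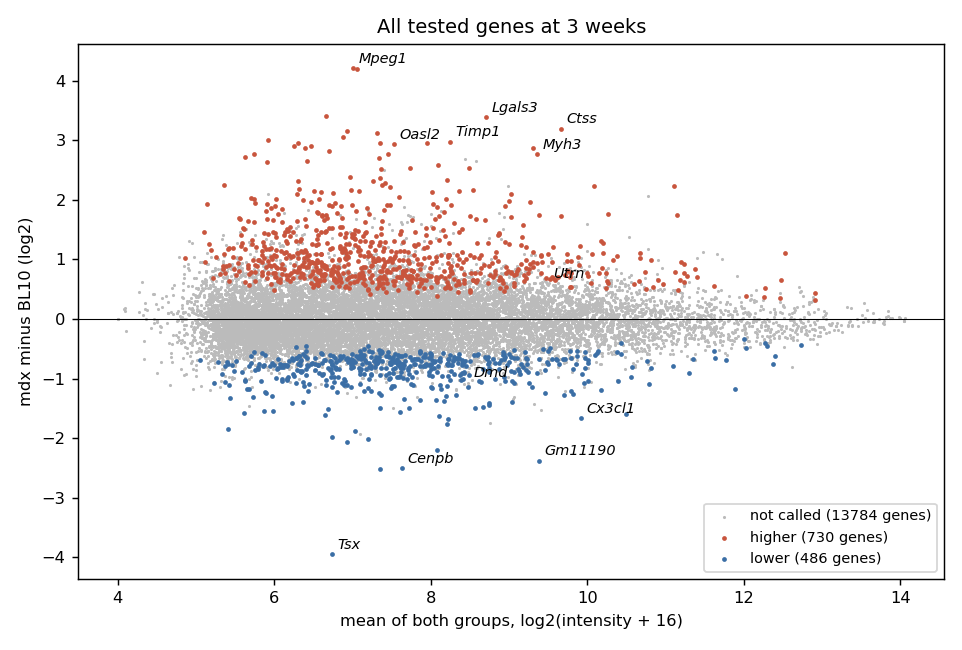
Each dot is one of the 15000 tested genes, with the mean log2(intensity + 16) of both groups on the horizontal axis and the mdx minus BL10 log2 difference on the vertical axis. Red dots are the 730 genes called higher and blue dots the 486 called lower in mdx, with Mpeg1 at 4.21 and Tsx at -3.95 at the ends, and Dmd and Utrn among the grey genes that were not called.

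Macrophage genes were the list with the most calls. Of 35 tested macrophage markers 26 were called higher and 0 lower, with a median difference of 1.47 against -0.018 over all genes. Their mean level was 6.79, 6.84 and 6.41 in BL10 and 7.37, 8.68 and 8.83 in mdx. Replicate 1 of mdx was thus the lowest of its group and still above every BL10 array. Without BL10 replicate 2 the count was 27, and it fell to 18 without mdx replicate 2 and 14 without mdx replicate 3.

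Mpeg1, the pore-forming perforin-2 of phagocytes, had the highest difference of all called genes whose groups did not overlap. It read 4.23, 5.85 and 4.62 in BL10 and 7.22, 10.01 and 10.09 in mdx, a difference of 4.21 ± 0.59, or 18.5-fold (limma, adjusted p = 0.00093). Ctss, the lysosomal protease cathepsin S, read 8.12, 8.27 and 7.81 against 9.35, 11.96 and 12.48 (3.20 ± 0.50, adjusted p = 0.0011). In both genes mdx replicates 2 and 3 agreed closely, and replicate 1 lay between them and the BL10 arrays. Fcer1g and Tyrobp, the signalling adaptors of activating receptors on myeloid cells, rose 5.04-fold and 4.49-fold, and Cd68, a glycoprotein of macrophage lysosomes, 3.57-fold. Lyz2, lysozyme, read 9.57, 9.44 and 9.12 in BL10 and 10.46, 11.41 and 11.56 in mdx. All 6 of these genes kept the call when each of the 6 arrays was left out in turn.

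Csf1r, Mrc1 and Adgre1, of the same list, were also called. Csf1r, the receptor for the macrophage growth factor, read 9.76, 9.11 and 9.01 in BL10 and 10.31, 10.15 and 10.38 in mdx (0.98 ± 0.26, adjusted p = 0.022). Mrc1, the mannose receptor, read 7.99, 8.69 and 8.93 against 8.92, 10.01 and 10.41. Adgre1, the gene of the F4/80 antigen, read 6.86, 6.57 and 6.74 against 6.82, 7.92 and 8.03. The mdx replicate 1 array lay inside the BL10 range for Mrc1 and Adgre1. Leaving out mdx replicate 3 ended the calls of all 3 genes, as it did for the complement subunits C1qb (1.26) and C1qc (1.07).

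Lgals3 and Gpnmb, a lectin and a membrane glycoprotein of lipid-laden and phagocytic macrophages, were among the highest. Gpnmb read 6.34, 5.44 and 5.47 in BL10 and 6.43, 10.74 and 9.43 in mdx, so replicate 1 was barely above the BL10 arrays. Lgals3 read 7.14, 8.49 and 5.41 against 8.70, 11.67 and 10.83, the widest BL10 spread of the pair, and its call was lost without BL10 replicate 3, mdx replicate 2 or mdx replicate 3. Chil3, a chitinase-like protein of alternatively activated macrophages, read 5.08 and 6.94 in BL10 replicates 1 and 2, was listed at or below 0 in BL10 replicate 3, and read a tight 8.35, 8.48 and 8.38 in mdx.

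Receptors and enzymes of the phagocyte moved with these markers. Of 11 tested genes for the NADPH oxidase and Fc receptors 8 rose and 0 fell, with a median of 1.66. Cybb, the catalytic subunit of the oxidase, read 5.99, 6.37 and 5.94 in BL10 and 7.93, 8.77 and 9.15 in mdx. Ncf4, a cytosolic subunit, read 5.78, 5.72 and 5.52 against 7.12, 7.50 and 7.72, and Syk, the kinase that Fc receptors recruit, 5.27, 6.03 and 5.16 against 7.43, 7.43 and 7.50, with 2 of its 4 probe sets higher in mdx. In these 3 genes all mdx arrays, replicate 1 included, stood more than 1 above the BL10 arrays. Left out one at a time, no array brought this list's count under 6.

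**Figure D3:**
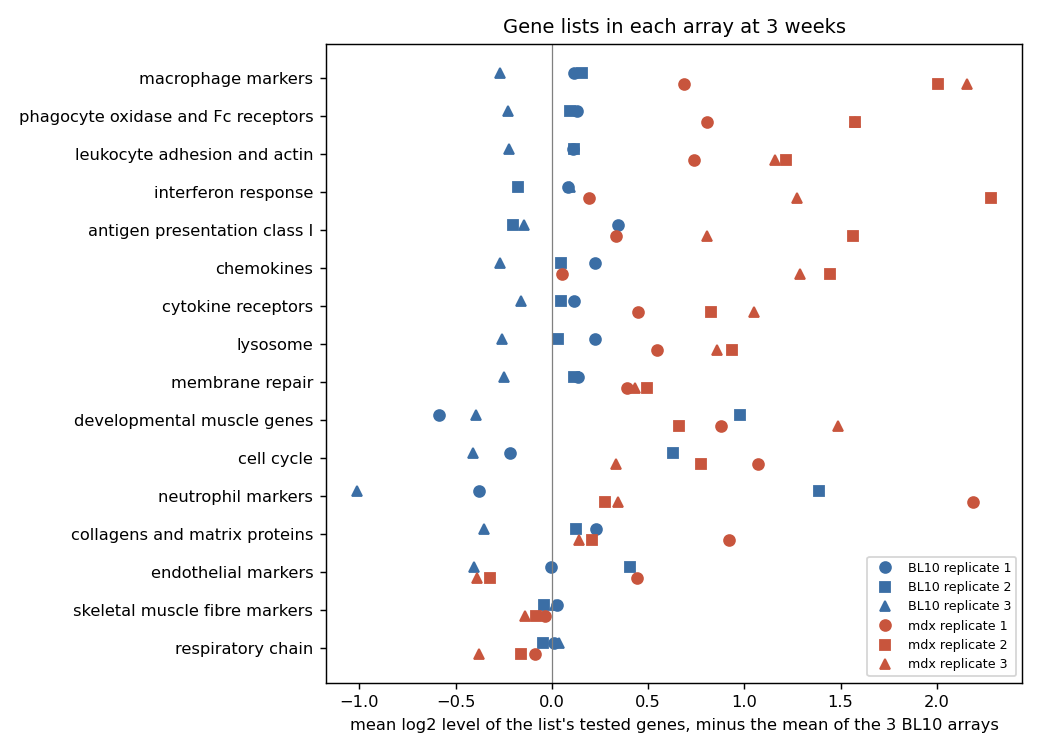
Each row is a gene list and each symbol an array: the mean log2 level of the list's tested genes minus the mean of the 3 BL10 arrays, blue for BL10 and red for mdx, with circles, squares and triangles for replicates 1, 2 and 3. The macrophage, phagocyte and leukocyte lists separate the strains in every array, the interferon list is led by mdx replicate 2, and in the developmental muscle, cell cycle and neutrophil lists BL10 replicate 2 sits among or beyond mdx arrays.

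Genes of leukocyte adhesion and the leukocyte cytoskeleton rose in 14 of 24 cases, with 0 lower and a median of 1.18. Ptprc, the pan-leukocyte phosphatase CD45, read 5.99, 6.98 and 6.42 in BL10 and 8.64, 9.81 and 9.84 in mdx (2.96 ± 0.41, adjusted p = 0.00093), although the other of its 2 probe sets was lower in mdx. Lcp1, the actin bundler L-plastin, read 6.78, 7.62 and 6.00 against 8.70, 9.92 and 9.53. Cd44, the hyaluronan receptor, rose 4.71-fold and Itgb2, the shared chain of leukocyte integrins, 3.72-fold. On the vessel side Vcam1, to which leukocytes attach, read 6.64, 7.09 and 6.92 in BL10 and 8.47, 8.12 and 8.49 in mdx, an increase that was alike in the 3 mdx arrays. The list's count was 15 without BL10 replicate 2 and at least 10 without any other array of this age.

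Signals that attract monocytes were split over the mdx arrays. Of 19 tested chemokines 7 rose and 1 fell. Ccl2, which draws CCR2-bearing monocytes, read 4.22, 5.54 and 4.72 in BL10 and 5.06, 9.31 and 8.98 in mdx. Ccl12, a further CCR2 ligand, read 4.94, 4.91 and 4.54 against 5.67, 9.13 and 8.31, and Ccl8 read 5.87, 5.59 and 5.78 against 5.97, 8.58 and 8.44. In each of the 3 genes mdx replicates 2 and 3 were far above BL10 while mdx replicate 1 stayed close to the BL10 arrays, and for Ccl2 below the highest of them. Leaving out mdx replicate 2 reduced the list to 1 gene called higher, and leaving out mdx replicate 3 to 2.

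Of 10 tested chemokine receptors 3 rose and 0 fell, with a median of 0.30. The 3 were Ccr2, Ccr1 and C5ar1, and in each all mdx arrays, replicate 1 included, lay above all BL10 arrays. Ccr2 read 5.94, 6.49 and 5.77 in BL10 and 7.77, 8.46 and 10.27 in mdx (2.77 ± 0.48, adjusted p = 0.0021). Ccr1, a receptor for several CC chemokines, read 5.08, 5.24 and 4.75 against 6.53, 8.25 and 8.98. The complement receptors C3ar1 and C5ar1 rose 6.28-fold and 2.85-fold. All 4 receptors kept their calls with each array left out. Ccl9, Ccl6, Cxcl10 and Pf4 completed the chemokines that rose, by 2.10, 1.96, 2.19 and 1.31 on the log2 scale, and each lost its call without mdx replicate 2.

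Cx3cl1, the membrane-bound chemokine fractalkine, was the 1 chemokine that fell. It read 11.14, 10.39 and 10.71 in BL10 and 9.04, 8.83 and 9.39 in mdx, a difference of -1.66 ± 0.25 (limma, adjusted p = 0.0011), with 3 of its 4 probe sets in the same direction. All mdx arrays lay below all BL10 arrays, and the call held with each array left out (differences of -1.84 to -1.47).

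Of 22 cytokine receptors 10 rose and 0 fell, with a median of 0.68. Csf2rb and Csf2ra, the chains of the GM-CSF receptor, rose 5.23-fold and 3.79-fold, and Tnfrsf1b, a TNF receptor, 2.61-fold. Osmr, the oncostatin M receptor, read 7.18, 7.34 and 7.51 in BL10 and 7.62, 8.49 and 9.80 in mdx, high mainly in replicate 3. Among 23 cytokines and growth factors 3 rose and 0 fell, with a median of 0.16, where 4.87% of all genes were called higher. Il1b was listed at or below 0 in BL10 replicate 1, read 4.86 and 4.28 in the other two, and read 5.29, 5.76 and 6.46 in mdx. Il33, an alarmin of stromal cells, read 6.34, 6.54 and 6.63 against 6.90, 7.53 and 9.02, and Csf1, the macrophage growth factor, rose 2.04-fold.

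Of 21 genes for pattern recognition and the inflammasome 12 rose and 0 fell, with a median of 0.73. They included the receptors Tlr2, Tlr3, Tlr7 and Tlr13, the adaptors Myd88 and Pycard, and the inflammatory caspases Casp1 and Casp4. Casp4 read 4.85, 5.18 and 5.47 in BL10 and 5.81, 7.63 and 7.62 in mdx, and kept its call with each array left out. Tlr3, a sensor of double-stranded RNA, read 5.68, 6.00 and 5.58 against 6.40, 7.69 and 6.48, led by mdx replicate 2. Mlkl, the effector of necroptosis, rose 2.43-fold, 1 of 2 called among 17 genes of cell death. Without mdx replicate 2 the pattern recognition list held 3 calls and without mdx replicate 3 it held 4. With the mean of probe sets it held 8 of 19 tested.

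The interferon response was strong in 1 array, moderate in another and near the BL10 level in the other mdx array. Of 39 tested interferon-stimulated genes 20 rose and 0 fell, with a median of 1.30. The list's mean level was 6.86, 6.60 and 6.87 in BL10 and 6.97, 9.06 and 8.05 in mdx. Oasl2, an antiviral 2'-5'-oligoadenylate synthetase-like protein, read 6.20, 5.89 and 6.08 in BL10 and 6.90, 10.69 and 9.39 in mdx (2.93 ± 0.58, adjusted p = 0.0049). Ifit1, which binds foreign RNA ends, read 4.83, 4.56 and 5.49 against 5.63, 9.92 and 7.96. Irf7, the factor that amplifies the response, read 6.56, 5.66 and 6.21 against 6.37, 9.54 and 7.95. The order was the same in all 3 genes, mdx replicate 2 above replicate 3 above replicate 1, and for Irf7 replicate 1 lay inside the BL10 range.

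Rsad2 (viperin) and Cmpk2 were also highest in mdx replicate 2, and Rsad2 read 8.11, 8.04 and 7.87 in BL10 and 9.23, 11.49 and 9.25 in mdx. Usp18, a brake on interferon signalling, rose 4.42-fold, and Irf8, a factor of the monocyte lineage, 2.75-fold. Irf8 read 7.04, 7.66 and 7.45 in mdx and 6.21, 6.05 and 5.51 in BL10, so it was nearly level over the 3 mdx arrays. The list held 7 calls without mdx replicate 2, 11 without mdx replicate 3, 28 without mdx replicate 1 and 19 without BL10 replicate 2. Class I antigen presentation followed the same arrays, with 5 of 12 genes higher and 0 lower. That count was 8 without mdx replicate 1, 3 without BL10 replicate 2, 2 without mdx replicate 3 and 1 without BL10 replicate 3 or mdx replicate 2. Tap1, which pumps peptides into the endoplasmic reticulum, read 5.74, 5.24 and 5.15 against 6.33, 8.57 and 7.20, from the 1 of its 4 probe sets that was higher in mdx. Of 9 class II genes 2 rose, Ctss and Ifi30.

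Interferon-stimulated genes are switched on through a promoter element in which the letters GAAA recur, and their promoters are shown for the 5 called genes with the largest differences that hold GAAA, any 2 bases and GAAA again upstream of the start. The letters were searched on both strands in the window from 250 bases before to 50 after the start in RefSeq promoters of assembly GRCm38.p6. Each line gives 100 bases, 5' to 3' along the gene's strand, with matches in capitals, which are overlapping where they run past 10 letters. They come from chr19:34640740-34640839 (plus strand) for Ifit1, chr19:34583328-34583427 (plus) for Ifit3, chr7:104465194-104465293 (minus) for Trim30a, chr12:26456518-26456617 (minus) for Rsad2 and chr5:120907526-120907625 (minus) for Oas1a.
Ifit1: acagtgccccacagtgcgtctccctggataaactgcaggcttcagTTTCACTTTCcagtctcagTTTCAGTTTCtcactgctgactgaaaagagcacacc
Ifit3: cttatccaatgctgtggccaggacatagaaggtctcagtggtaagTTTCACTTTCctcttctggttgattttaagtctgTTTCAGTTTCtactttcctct
Trim30a: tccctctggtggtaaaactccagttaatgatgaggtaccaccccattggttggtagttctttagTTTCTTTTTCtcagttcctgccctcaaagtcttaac
Rsad2: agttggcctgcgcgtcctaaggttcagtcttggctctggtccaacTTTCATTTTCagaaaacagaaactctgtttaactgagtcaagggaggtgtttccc
Oas1a: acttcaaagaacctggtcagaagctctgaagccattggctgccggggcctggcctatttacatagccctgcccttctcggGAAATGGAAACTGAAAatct

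The letters occurred in 17 of the 32 listed interferon genes with a promoter in the table, against 3.99% of all 27025 genes. They were present in 8 of 16 called genes and in 7 of 13 that were tested but not called. For macrophage markers the letters GAGGAAGT, a form of the site of the myeloid factor PU.1, were found in 4 of 28 genes against 3.69% of all genes, and Ctss, C1qc and Cd53 were the called genes among them. These are matches of letters and not measured binding.

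**Figure D4:**
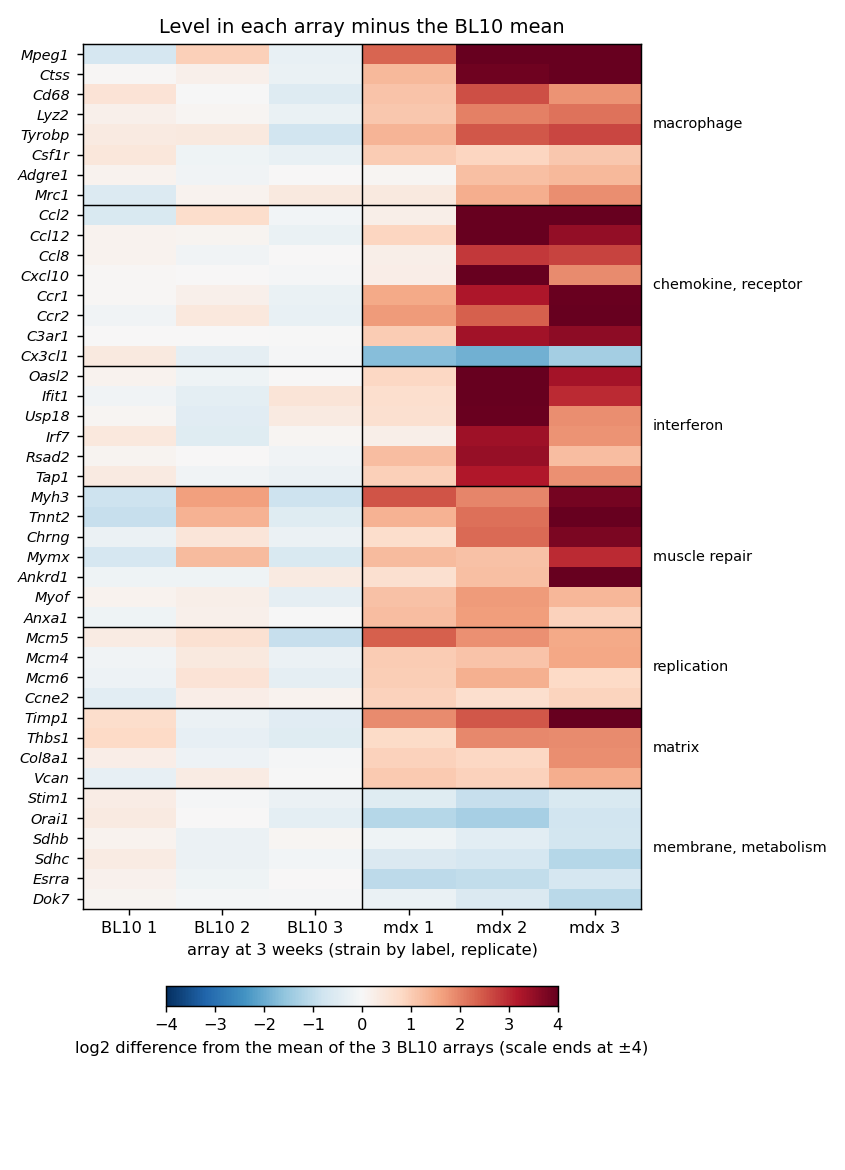
Rows are genes of the lists and columns the 6 arrays, coloured by log2 level minus the gene's mean over the 3 BL10 arrays, red above and blue below, with colours saturating at 4. Columns mdx 2 and mdx 3 are red in the macrophage, chemokine and interferon rows except Cx3cl1 (-1.66). Column mdx 1 is paler in those red rows except Csf1r, and column BL10 2 is red in Myh3, Tnnt2 and Mymx.

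Genes of new muscle fibres rose in mdx, and BL10 replicate 2 shared part of that rise. Of 17 genes of developing muscle 6 rose and 0 fell, with a median of 0.66. Myh3, embryonic myosin heavy chain, read 7.14, 9.63 and 7.16 in BL10 and 10.50, 9.92 and 11.82 in mdx (2.77 ± 0.66, adjusted p = 0.014). Tnnt2, the cardiac troponin T that developing skeletal fibres also make, read 6.32, 8.63 and 6.73 against 8.63, 9.42 and 11.24. Chrng, the fetal acetylcholine receptor subunit, was listed at or below 0 in BL10 replicates 1 and 3, read 4.71 in BL10 replicate 2, and read 4.93, 6.51 and 7.99 in mdx. In all 3 genes BL10 replicate 2 was the highest BL10 array and mdx replicate 3 the highest mdx array.

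Mymx, the micropeptide myomixer that drives fusion of myoblasts, read 4.98, 6.91 and 5.05 in BL10 and 6.92, 6.81 and 8.62 in mdx, with BL10 replicate 2 inside the mdx range. Ankrd1, a stress-responsive muscle ankyrin protein, read 6.88, 6.89 and 7.42 against 7.70, 8.26 and 11.03, high in mdx replicate 3. Without BL10 replicate 2 the developmental list had 10 genes higher and a median of 1.39. Without mdx replicate 3 it had 1, and without BL10 replicate 1 or 3 it had 2, as it did with the mean of probe sets. None (0) of 24 satellite cell and myogenic regulator genes was called by limma (median 0.09), with 1 higher and 1 lower at an unadjusted p under 0.05, and neither was any of 15 skeletal fibre markers, 19 fast fibre genes or 14 slow fibre genes (medians -0.03, -0.04 and 0.00, the first 2 above 0 with the values as deposited or median centred). At the unadjusted threshold 1 of these fibre genes, Cacna1s, was lower, and 0 were higher.

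The promoters of Tnnt2 and Chrng are shown because both genes rose and hold CAGCTG, an E-box of the kind that MyoD-family factors bind, in capitals. The windows are chr1:135836084-135836183 for Tnnt2 and chr1:87205609-87205708 for Chrng, both on the plus strand of GRCm38.p6.
Tnnt2: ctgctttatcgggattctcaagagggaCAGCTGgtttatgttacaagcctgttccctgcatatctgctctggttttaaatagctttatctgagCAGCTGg
Chrng: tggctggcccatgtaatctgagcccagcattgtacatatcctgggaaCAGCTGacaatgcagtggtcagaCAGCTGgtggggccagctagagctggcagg
The letters, which read the same on both strands, were present in 4 of 15 developmental muscle genes against 18.3% of all genes, and in 2 of the 6 called. These genes are too few to compare the shares.

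Few cell cycle genes were called. Of 38 tested, 4 rose and 1 fell, although the median was 0.72 and 17 were higher at an unadjusted p under 0.05. Over all 15000 genes 3834 passed the unadjusted threshold in either direction. With the values as deposited, or median centred, 8 rose and 0 fell. The 4 were Mcm5, Mcm4 and Mcm6, parts of the replicative helicase, and Ccne2, the cyclin of entry into S phase. Mcm5 read 6.84, 7.11 and 5.60 in BL10 and 8.91, 8.36 and 8.03 in mdx, so the groups did not overlap. The list's mean level was 6.51, 7.35 and 6.32 in BL10, with replicate 2 the highest. Without BL10 replicate 2 the list had 16 genes higher, and without BL10 replicate 1 it had 0. Mcm3, the helicase subunit called lower (-0.51 ± 0.16), turned to 0.56 when its 5 probe sets were averaged.

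Of 16 genes for membrane repair 7 rose and 0 fell, with a median of 0.42. Myof, myoferlin, a relative of dysferlin that acts in membrane fusion, read 5.98, 6.08 and 5.50 in BL10 and 7.02, 7.57 and 7.19 in mdx (1.41 ± 0.22, adjusted p = 0.0011). Anxa1, one of the annexins that gather at membrane lesions, read 9.38, 9.76 and 9.55 against 10.78, 11.24 and 10.47. Capn2, a calcium-activated protease, read 9.76, 9.98 and 9.81 against 10.52, 10.74 and 10.63. These 3 genes were raised to a like extent in all mdx arrays, and each kept its call with every array left out. Anxa2, Anxa4, S100a10 and Ahnak rose by 0.83, 1.04, 0.65 and 0.71, and for Ahnak that direction held in 1 of 4 probe sets. Anxa2, Anxa4 and S100a10 each lost the call without BL10 replicate 3 or mdx replicate 3. The list's count was 4 without BL10 replicate 3, 3 without mdx replicate 3 and 3 with the mean of probe sets.

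Of 24 lysosomal genes 10 rose and 0 fell (median 0.74) from Ctss at 3.20 to Lamp2 at 0.59. The count was 3 without BL10 replicate 3 and 4 without mdx replicate 2 or 3. Atp6v0d2, a subunit of the proton pump of macrophages and osteoclasts, rose 2.47-fold, and Grn, progranulin, 2.04-fold. Chaperones of the endoplasmic reticulum and cytosol were called in 4 of 25 cases: Hsp90aa1, Hsp90b1, Hspa5 and Canx, by 0.98, 0.79, 0.66 and 0.61. In each of them mdx replicate 1 was the lowest mdx array, and without BL10 replicate 1 or mdx replicate 3 the count was 0. With the mean of probe sets it was 0 too, at a median of 0.012.

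Matrix genes were mostly not called at this age. Of 34 collagens and matrix proteins 3 rose, and of 29 genes for matrix remodelling 5 rose, with 0 lower in both, where 4.87% of all genes were called higher. The medians of the 2 lists were 0.30 and 0.57, against -0.018 over all genes. At an unadjusted p under 0.05 limma gave 7 of the 34 higher and 0 lower, and 12 of the 29 higher and 1 lower. Over all 15000 genes 3834 passed that threshold in either direction. The remodelling count was 9 without mdx replicate 1, 3 without BL10 replicate 1, 1 without mdx replicate 3 and 9 with the values as deposited, and the collagen count ran from 0 without mdx replicate 3 to 5 without BL10 replicate 2. Timp1, an inhibitor of matrix metalloproteinases, read 7.47, 6.51 and 6.30 in BL10 and 8.65, 9.23 and 11.31 in mdx (2.97 ± 0.54, adjusted p = 0.0031), and kept its call with each array left out. Adam8, a protease of inflammatory cells, was listed at or below 0 in BL10 replicates 1 and 3 and read 4.79 in replicate 2, against 4.75, 8.16 and 8.06 in mdx. Thbs1 (thrombospondin 1), Col8a1 and Vcan (versican) rose by 1.52, 1.21 and 1.14. The mean level of the collagen list was 10.28, 10.17 and 9.70 in BL10 and 10.97, 10.26 and 10.19 in mdx, so mdx replicate 1 was the highest of the 6 arrays and the other two lay inside the BL10 range.

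Markers of other cell types were called rarely. None (0) of 12 neutrophil markers was called by limma, although 4 were higher at an unadjusted p under 0.05. Over all 15000 genes 3834 passed that unadjusted threshold in either direction. Their mean level was 5.78, 7.55 and 5.15 in BL10 and 8.35, 6.44 and 6.51 in mdx, so mdx replicate 1 and BL10 replicate 2 were the 2 highest arrays. S100a9, a calcium-binding protein that neutrophils hold in bulk, read 6.36, 10.33 and 4.61 in BL10 and 11.36, 8.48 and 9.51 in mdx (2.68, not called). Ngp, a granule protein of maturing neutrophils, read 6.37, 9.26 and 4.55 against 10.45, 5.90 and 4.94, and Camp, of the same granules, 5.17, 8.04 and a value at or below 0 against 10.33, 4.54 and 4.46. The same 2 arrays were highest for both granule genes, while mdx replicates 2 and 3 lay within the BL10 range. Without BL10 replicate 2, 3 neutrophil markers were called higher. Endothelial, pericyte, fibro-adipogenic progenitor, adipocyte, tendon, B cell and mast cell lists had 0 calls among 16, 12, 13, 10, 11, 6 and 8 tested genes in the limma fit. At an unadjusted p under 0.05 the endothelial and tendon lists had 1 gene lower each, the fibro-adipogenic list 1 higher and 2 lower, and the other lists 0. Among T and NK cell markers Cd8a fell by 0.68 (limma, adjusted p = 0.0495), among dendritic cell markers Clec4a3 rose 4.37-fold, and among 10 Schwann cell markers Cdh19 rose 1.79-fold. Cd8a lost its call without BL10 replicate 1, BL10 replicate 3, mdx replicate 2 or mdx replicate 3. With the values as deposited or median centred 0 T and NK cell markers were lower. The Schwann cell list had a median of 0.89, and 5 of its genes were higher and 0 lower at an unadjusted p under 0.05. Its mean level was 7.39, 7.43 and 7.24 in BL10 and 8.14, 7.56 and 8.96 in mdx, so it was higher in all 3 mdx arrays and highest in replicate 3. The tendon markers read 9.57, 7.72 and 8.50 on average in BL10, the adipocyte markers 10.47, 8.93 and 9.43, and BL10 replicate 2 was the lowest of its group in both. The part of these cells in the results was not tested.

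Of the 859 list genes tested 14 fell (1.63%, against 3.24% of all genes) and 149 rose (17.3%, against 4.87%); the lists were chosen with earlier results of these data known. Orai1 and Stim1, the channel and the sensor of store-operated calcium entry, were both called lower after quantile normalization. Orai1 read 9.97, 9.62 and 9.20 in BL10 and 8.47, 8.27 and 8.84 in mdx (-1.07 ± 0.25, adjusted p = 0.015), and Stim1 10.34, 10.02 and 9.80 against 9.57, 9.12 and 9.45 (-0.67 ± 0.18, adjusted p = 0.024). With Cacnb1, a subunit of the voltage sensor, they were the 3 genes called among 29 for calcium handling and excitation. All 3 lost the call without BL10 replicate 1 or mdx replicate 2. The list also depended on the scaling. With the values as deposited or median centred 1 of its genes was called lower, and its median moved from -0.129 to 0 and -0.006.

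Energy metabolism was barely called. Of 32 respiratory chain genes 2 fell, Sdhb and Sdhc, both subunits of succinate dehydrogenase, and the list's median was -0.21. At an unadjusted p under 0.05 limma gave 13 of the 32 lower and 0 higher, against 3834 of all 15000 genes in either direction. Sdhc read 11.83, 11.26 and 11.39 in BL10 and 10.93, 10.82 and 10.37 in mdx. Esrra, a nuclear receptor that governs mitochondrial genes, fell by 0.90 ± 0.24 (limma, adjusted p = 0.024), while 0 of 20 glycolysis and glycogen genes and 0 of 19 fatty acid oxidation genes were called, with 2 and 1 lower at the unadjusted threshold. Without mdx replicate 1 there were 7 respiratory chain genes lower, without BL10 replicate 2 there were 4, and without any of the other 4 arrays there were 0. The count was 1 with the values as deposited and 0 after median centring. Of the citrate cycle and mitochondrial regulators, the list with Esrra, 0 were lower in both settings. Of 18 neuromuscular junction genes 1 rose and 1 fell (Dok7, which organizes the junction, by 0.64), of 25 genes of atrophy and autophagy 1 rose and 2 fell (Foxo4 by 0.84 and Tfeb by 0.60), and of 16 circadian clock genes 1 fell (Per2, by 1.22). With the values as deposited 0 genes of the junction and atrophy lists were lower. Each of these 4 genes lost its call without BL10 replicate 1, BL10 replicate 3 or mdx replicate 2.

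Of the 15 lowest differences among called genes whose groups did not overlap, Cx3cl1 is described above with the chemokines. Tsx, a testis transcript of the X inactivation centre, read 9.20, 8.16 and 8.79 in BL10 and was listed at or below 0 in mdx replicates 1 and 2, with 6.29 in replicate 3. Krtap5-1, a keratin-associated protein, read 9.15, 8.18 and 8.50 against 5.81, 5.21 and 7.27, and Cenpb, a centromere protein, 9.09, 8.74 and 8.81 against 5.93, 5.68 and 7.52. In these 3 genes mdx replicate 3 was nearest to BL10, the reverse of the inflammatory genes. Gm11190, Chst13, Cdc45, Fbxl7, Rnase10, Exoc3l2, Nutm1, Acad10, Zdhhc14, Actrt3 and Cdkl2 followed with Cx3cl1, from -2.38 to -1.61. Cdc45 and Exoc3l2 were each lower in 1 of 2 probe sets, Fbxl7 in 2 of 4 and Cdkl2 in 2 of 3. Zdhhc14 has 6 probe sets, of which 2 were lower in mdx, and the mean of all 6 gave 0.215, so its direction rests on the choice of probe set. Tsx and Acad10 each lost the call without BL10 replicate 1, BL10 replicate 3 or mdx replicate 1. Tsx also lost it without mdx replicate 2, and Acad10 without mdx replicate 3. Chst13 lost the call without BL10 replicate 1 or mdx replicate 1, Actrt3 and Rnase10 without mdx replicate 2, and Zdhhc14 without BL10 replicate 1. The rest of the 15 kept it with each array left out. At 2 weeks Tsx differed by 2.05 ± 0.98.

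Among the 15 highest, the genes not described above were Slfn4, Ifi209, Plek, Clec4d and Plac8. Slfn4, a myeloid gene of the schlafen family, read 4.56, 5.43 and 4.90 in BL10 and 6.07, 11.34 and 10.05 in mdx, 4.19 ± 0.74. Its standard deviation was 0.44 in BL10 and 2.75 in mdx, while the standard error is pooled over all ages. Ifi209, an interferon-inducible gene of the HIN-200 family, read 4.81, 5.28 and 4.77 against 6.76, 9.74 and 8.61. Plek, pleckstrin of platelets and leukocytes, read 4.65, 6.37 and 5.04 against 7.01, 9.76 and 8.75. All 5 kept their calls with each array left out, and in all 5 mdx replicate 1 was the lowest mdx array.

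Whether the strain difference was particular to 3 weeks was asked by comparing it with the difference at 2 weeks and at 5 days, ages that share no array with it. Against 5 days, 187 genes had a higher mdx minus BL10 difference (1.25% of genes) and 77 a lower one (0.513%). The highest were Mpeg1, Slfn4, Clec7a, Wfdc17, Ccr1, Lcp1, Ptprc, Ifi209, Cybb and Plek, most of them known from myeloid cells or other leukocytes. For Mpeg1 the difference was -0.34 at 5 days, 1.35 at 2 weeks and 4.21 at 3 weeks, and the 3-week value exceeded the 5-day one by 4.55 ± 0.83 (limma, adjusted p = 0.0093). For Lcp1 it was -0.81, 0.04 and 2.58, a change of 3.40 ± 0.53 from 5 days. Egfbp2, Adh1 and Cyp4f15, among the lowest against 5 days, had strain differences of 2.54, 2.26 and 2.47 at 5 days and of 0.01, -0.54 and -0.62 at 3 weeks, where none was called. Not all genes called at 3 weeks were near 0 earlier. Tnnt2, Chrng and Ankrd1 differed by 1.38, 1.21 and 1.21 at 5 days and by -0.80, 0.44 and 1.20 at 2 weeks. Sdhc and Cacnb1 differed by -0.87 and -0.89 at 5 days, 0.18 and 0.05 at 2 weeks, and -0.79 and -0.74 at 3 weeks. The change from 5 days passed for none of these called genes.

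Against 2 weeks, 4 genes had a higher difference (0.0267%) and 16 a lower one (0.107%). Lst1, a leukocyte transcript, differed by -0.26 at 2 weeks and 1.87 at 3 weeks, a change of 2.13 ± 0.39 (limma, adjusted p = 0.0498, the value shared by all 20). Cx3cl1 went from 0.20 to -1.66, and Cenpb from 0.47 to -2.50. Mpeg1 did not pass against 2 weeks (2.86 ± 0.83, limma, adjusted p = 0.10), and neither did Ptprc (2.54 ± 0.58, adjusted p = 0.058). This count was 0 with values as deposited, and it ran from 0 to 1051 as single arrays were left out, the highest without BL10 replicate 3 of 2 weeks. Myh3 differed by -0.01 at 5 days, 0.02 at 2 weeks and 0.25 at 6 weeks, and Ccl2 by 0.10, 0.05 and -0.61. Neither gene passed the test of change between ages. By limma the adjusted p of Myh3 was 0.15 against 2 weeks and 0.12 against 5 days, and that of Ccl2 0.14 and 0.12. Labels at these ages are in doubt too. Replicate 3 of mdx at 2 weeks is titled as 2 weeks while its description names 3 weeks, and its Dmd level (10.31 in 1448665_at) lay above all BL10 arrays of 2 weeks (9.18 to 10.08), with the other two mdx arrays at 7.73 and 8.33. Without it the count against 2 weeks was 0, and every 2-week difference given here includes it. The 3 arrays labelled mdx at 6 weeks (9.84 to 10.04) overlapped BL10 (9.83 to 10.25) in Dmd.

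**Figure D5:**
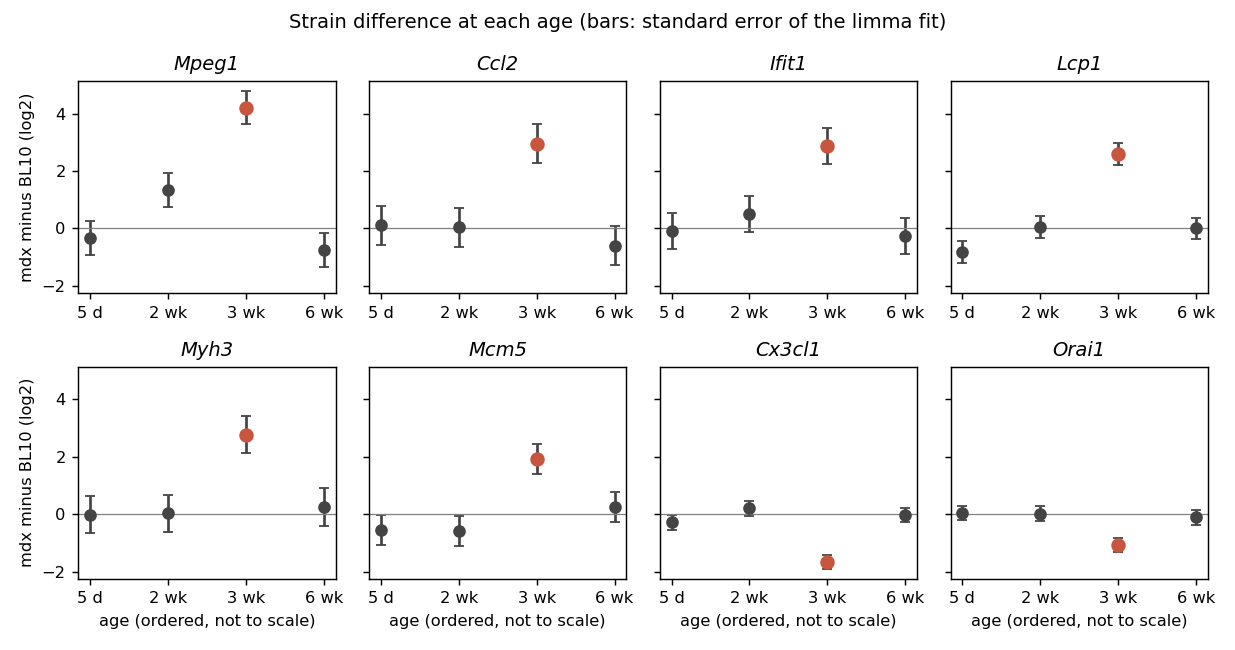
Points give the mdx minus BL10 log2 difference of 8 genes at 5 days, 2 weeks, 3 weeks (red) and 6 weeks, with bars of 1 standard error of the limma fit (n = 3 arrays a group). At 3 weeks Mpeg1 stands at 4.21, Ccl2 at 2.96 and Cx3cl1 at -1.66, and the same genes lie nearer 0 at the other ages.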

How the data were processed

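RNA of quadriceps was hybridised to Affymetrix Mouse 430 2.0 arrays. The deposited values are linear intensity per probe set, summarised by the authors with PLIER per the submitters' processing notes; its version and settings, and any genome build, are not given in the sources used here. Of 45101 probe sets, 64 array controls were left out, and 34945 carry 1 symbol in the platform's table. Arrays were quantile normalized with values below 0 kept, values below 0 were then set to 0, 16 was added and log2 taken. A gene was read from its brightest probe set and tested if at least 3 arrays had it above their 40th percentile. One limma model (limma 3.58.1 under R 4.3.3) of 8 group means, with 16 residual and 5.15 prior degrees of freedom and an intensity trend, gave two-sided tests with Benjamini-Hochberg adjustment within each comparison; the median standard error was 0.225. P-values measure the spread between these arrays, and a 3 against 3 exact permutation test cannot go below 0.1. Arrays have no read depth, and precision is limited by their number. The fit was tested on simulated data.

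Named genes are Dmd, Utrn, the 15 highest and 15 lowest called genes without overlap, members of 49 lists (966 of 1049 on the array) and the 10 highest and lowest in each comparison between ages. The members, lists and settings were chosen with earlier results of these data known, and leave-outs of arrays whose Dmd goes against the label after seeing them. Symbols matching no tested gene are not analysed here. Promoters are RefSeq's, matched by symbol. Other settings covered the scaling, the added constant, the filter, the choice of probe set, the variance model, array weights, a replicate block and each array left out. Figures were drawn with matplotlib.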

Additional observations from a re-analysis of the deposited data

Results flagged for a closer look

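By limma's test of the change between ages, the strain difference of 36 of the 142 genes the text names was higher at 3 weeks than at 5 days, and that of 10 was lower. Over all genes 1.25% were higher and 0.513% lower. Many of the 142 were named for their 3-week difference or for this same comparison, so their count follows in part from the choice. The 10 highest changes were 4.55 for Mpeg1, 4.11 for Slfn4, 3.65 for Clec7a, 3.46 for Wfdc17, 3.42 for Ccr1, 3.40 for Lcp1, 3.37 for Ptprc, 3.36 for Ifi209, 3.28 for Cybb and 3.15 for Plek on the log2 scale. Among the 10 genes that were lower, Cyp4f15 (-3.09), Adh1 (-2.80), Gm11190 (-2.57), Egfbp2 (-2.53), Cenpb (-2.46) and Nutm1 (-2.16) changed most, and the others were Fbxl7, Cdc45, Cdkl2 and Per2, from -2.12 to -1.77.

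Against 2 weeks the change passed for Lst1 (2.13) and Txn1 (1.09) upwards, and for Cx3cl1 (-1.86), Zdhhc14 (-2.71), Nutm1 (-2.71), Cenpb (-2.97) and Krtap5-1 (-3.17) downwards. These 7 had an adjusted p of 0.0498 in the limma fit, and the count of calls against 2 weeks was 0 under several other settings.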

How the results depend on the processing

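For mdx against BL10 at 3 weeks (1216 genes called), the count stayed within 1.5 times under every setting tried except array weights (753), the arrays of this age alone (0), the omission of BL10 replicate 2 of 3 weeks and mdx replicate 3 of 2 weeks, 2 arrays with Dmd levels against their label (2280), and single arrays, which gave 462 to 2106. Against 2 weeks (20 genes) it was 0 with values as deposited, median centring, an added constant of 1, no filter, no intensity trend, the compared ages alone, and without the 2 arrays, with or without mdx at 6 weeks. It was 51 with a constant of 64, 45 with a 60th percentile filter, 7 with the mean of probe sets, 379 with array weights and 0 to 1051 with single arrays left out. At an unadjusted p under 0.05 those limma fits with 0 calls had 1672 to 2768 genes. Against 5 days (264 genes) it was 493 with values as deposited, 397 with median centring, 168 with the mean of probe sets, 15 with those ages alone, 715 without the 2 arrays, 444 without them and mdx at 6 weeks, and 102 to 540 with single arrays left out. The cause was not tested. With the mean of probe sets 33 of the 140 named genes tested lost the call and 3 reversed: Zdhhc14 turned to 0.215, Mcm3 to 0.557 and Slc4a1 to 0.036. Among genes that were not called, the difference changed sign as single arrays were left out, from -1.236 (without mdx replicate 1) to 1.862 (without BL10 replicate 2) for Camp, from -1.303 to 1.639 without the same arrays for Ngp, and from -0.129 (without BL10 replicate 2) to 0.192 (without BL10 replicate 1) for Egfbp2, which also read -0.129 without the 2 arrays, with or without mdx at 6 weeks.

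Replicate numbers did not pair the samples: deviations of same-numbered arrays correlated at 0.167, -0.247 and 0.22. A replicate block gave 1335, 59 and 319 genes for the 3 comparisons. Of the 132 called genes the text names, 59 kept the call with each of the 6 arrays left out in turn, 73 lost it without at least 1, and 0 changed direction. The number of arrays and the floor at 0 limit what dim genes can show.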

Other observations

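Mt1, a metallothionein that binds zinc, read 10.05, 11.29 and 8.64 in BL10 and 10.41, 12.85 and 13.40 in mdx at 3 weeks, and was called at 2.23 ± 0.65 (limma, adjusted p = 0.039) with mdx replicate 1 inside the BL10 range. Its strain difference was 3.40 at 5 days and 1.16 at 2 weeks. The call at 3 weeks was lost without BL10 replicate 1, BL10 replicate 3, mdx replicate 2 or mdx replicate 3. Among 23 genes of oxidative stress and iron, Slc11a1, an iron transporter of the phagosome, rose 3.36-fold and Txn1, thioredoxin, 1.53-fold.

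Of 30 genes of TGF-beta and BMP signalling 1 was called, Tgfbr1, a receptor chain, which read 8.29, 8.87 and 8.94 in BL10 and 9.37, 9.35 and 9.77 in mdx. With the values as deposited the list had 8 calls, and the single call after quantile normalization was lost without BL10 replicate 1 or mdx replicate 3. Slc4a1, the anion exchanger of red cells, was the 1 of 5 erythroid markers called, at -0.83 ± 0.23, and its groups overlapped.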
